A study of Mus musculus with 2 samples.

Results

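The 243 protein-coding olfactory receptor genes of mouse chromosome 7 were examined for histone H3 trimethylated at lysine 27 (H3K27me3). They are the genes of GENCODE mouse release M21 on GRCm38 (mm10) whose symbols start with Olfr and a number, 243 of 21911 protein-coding genes in all and of 2021 on chromosome 7. A symbol that occurs 2 times kept its longest gene, 7 symbols that end like those of pseudogenes were kept because the annotation calls them protein-coding, and 49 annotated olfactory receptor pseudogenes were not counted as members. The members fell into 11 clusters when genes within 100 kb of each other were joined.

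Chromatin immunoprecipitation with sequencing was used to map the mark in MEL, an immortalized mouse erythroleukaemia cell line made of leukaemic red cell precursors. The series holds 1 group, untreated as far as the labels go, with 2 biological replicates, and nothing says whether they came from separate cultures. The deposited data are lists of peaks: 1 for each replicate, a pooled list and a list named replicated, which is used below unless another is named. Read depth is unknown because the lists give no counts, and uncovered bases may still carry the mark.

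Olfactory receptors are G protein-coupled receptors of the sensory neurons of the nose, and each mature neuron expresses a single one of them from one allele. Their genes sit in tandem clusters, usually with the coding sequence in a single exon, and in olfactory neurons the silent ones carry heterochromatin marks of the H3K9me3 kind. H3K27me3 is laid down by Polycomb repressive complex 2. The class I receptor genes of the mouse lie in a stretch of this chromosome that surrounds the beta-globin genes, which are among the genes most strongly used by maturing red cells.

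H3K27me3 peaks were found at few of these genes and, in the replicated list, at members of a single cluster. A start was counted where at least 1 bp of peak fell in the window from 1 kb before to 1 kb after it, which was so for 5 of 243 members (2.06%), against 1.83% of all protein-coding genes of chromosome 7. In the list of replicate 1 the count was 8 of 243 (3.29%), against 3.32% of the chromosome's genes. In the list of replicate 2 it was 17 of 243 (7.0%), against 4.7%. The share of starts was thus close to the chromosome's own in the replicated list and in replicate 1, and above it in replicate 2. Peaks touched the body of 12 members (4.94%), against 7.62% of the genes of the chromosome, which are longer (medians of 5973 bp for the members and 11363 bp for all genes). Of the summed body length, 0.293% was covered in the members and 0.343% in the other 1778 genes of the chromosome. In replicate 1 the values were 0.276% and 0.438%, and in replicate 2 they were 0.939% and 0.693%, so the order of the groups turned between the replicates.

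Moving the peak list around the known sequence of chromosome 7 in every step of 10 kb, 14234 positions in all, served as the reference for these counts. The mean over these shifts was 3.86 starts with a replicated peak, with a central 95% range of 0 to 13, and 4668 shifts reached the observed 5. For replicate 1 the mean was 6.93 (0 to 20) and 5376 shifts reached 8. For replicate 2 it was 10.4 (0 to 29) and 2591 shifts reached 17. Bodies with a replicated peak numbered 12, with a shift mean of 7.94 (0 to 24) and 3198 shifts that reached this count. The covered bases of the member bodies were 4628, with a shift mean of 4970 (0 to 17980) that 5590 shifts reached or passed. All 5 observed values lay inside these wide ranges.

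**Figure D1:**
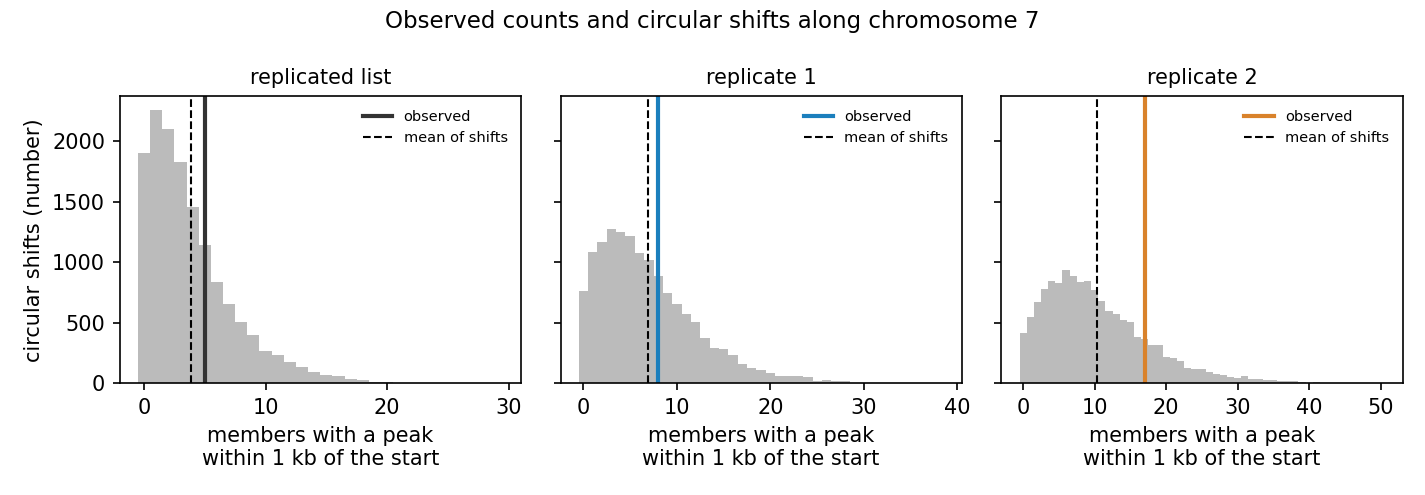
Number of members with a peak within 1 kb of the start (x axis) over all circular shifts of each peak list along chromosome 7 (grey bars, number of shifts on the y axis), with the observed count as a coloured line and the mean of the shifts as a dashed line. The observed counts of 5, 8 and 17 lie to the right of the means of 3.86, 6.93 and 10.4 and inside the bulk of the shifts.

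The peaks fell in few of the clusters. Of the 11 clusters, 9 held no peak of the replicated list and none of replicate 1. The cluster from Olfr543 to Olfr649, with 95 members over 1719407 bp, held 37 replicated peaks that covered 10482 bases (0.610%). It is the one that surrounds the beta-globin genes. Coverage there was 0.617% in replicate 1 (56 peaks) and 1.64% in replicate 2 (124 peaks). The shift mean for a stretch of this length was 0.314% (0 to 1.93%), and 2006 shifts reached the replicated value, 3120 that of replicate 1 and 1457 that of replicate 2. All 5 members with a replicated peak at the start and all 12 with one in the body belong to this cluster.

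The pair Olfr520 and Olfr521, which forms a cluster of its own at chr7:99730273-99769321, had the densest coverage. Its 7 replicated peaks covered 2041 bases (5.23%), with 5.59% in replicate 1 and 8.06% in replicate 2. The peaks all lay between the genes: the nearest was 8234 bp upstream of the start of Olfr521, and no replicated peak touched either body. In replicate 2 alone a peak of 143 bases lay in the start window of Olfr521 and one of 197 bases in the body of Olfr520. Of the 14234 shifts, 246 gave this short interval as much replicated coverage, 274 as much of replicate 1 and 253 as much of replicate 2. The interval was singled out as the densest of all clusters after the values were seen, and these shift counts do not allow for that choice. Nor are the counts separate from each other, because the replicated list derives from both replicates and the replicates share their control. The cluster of Olfr522, Olfr523 and Olfr524 had 5 peaks over 890 bases (1.94%) in replicate 2 and none in the other 2 lists.

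The other 8 clusters, with 143 members, had no peak in either replicate. Empty clusters were common among the shifts: 4464 of the 14234 shifts of replicate 2 left the longest of these 8 without a peak, and 10393 left the shortest without one. These 8 include the large cluster from Olfr467 to Olfr519 with 42 members over 1082158 bp and that from Olfr693 to Olfr716 with 26. Olfr17, a receptor gene much used in work on how olfactory axons find their targets, lies in the latter, and its nearest replicated peak was 1268781 bp away (the gene was chosen after its values were seen). For 53 of the 243 members the nearest replicated peak was over 1 Mb away. The share of all chromosome 7 genes at such a distance was not computed, so this count has no background beside it. Outside the globin-flanking cluster, 0 of 148 members had a peak at the start in the replicated list and 0 and 1 in replicates 1 and 2. Inside it the counts were 5 of 95 (5.26%), 8 of 95 (8.42%) and 16 of 95 (16.8%). Over whole clusters, the share of 31-base words that occur once in the genome was 74.5% in this cluster, 92.4% in that of Olfr520 and Olfr521 and 95.3% in that of Olfr522 to Olfr524. In the 8 clusters with no peak in either replicate it ran from 65.9% to 83.4%. The part of this in the peak counts was not tested.

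**Figure D2:**
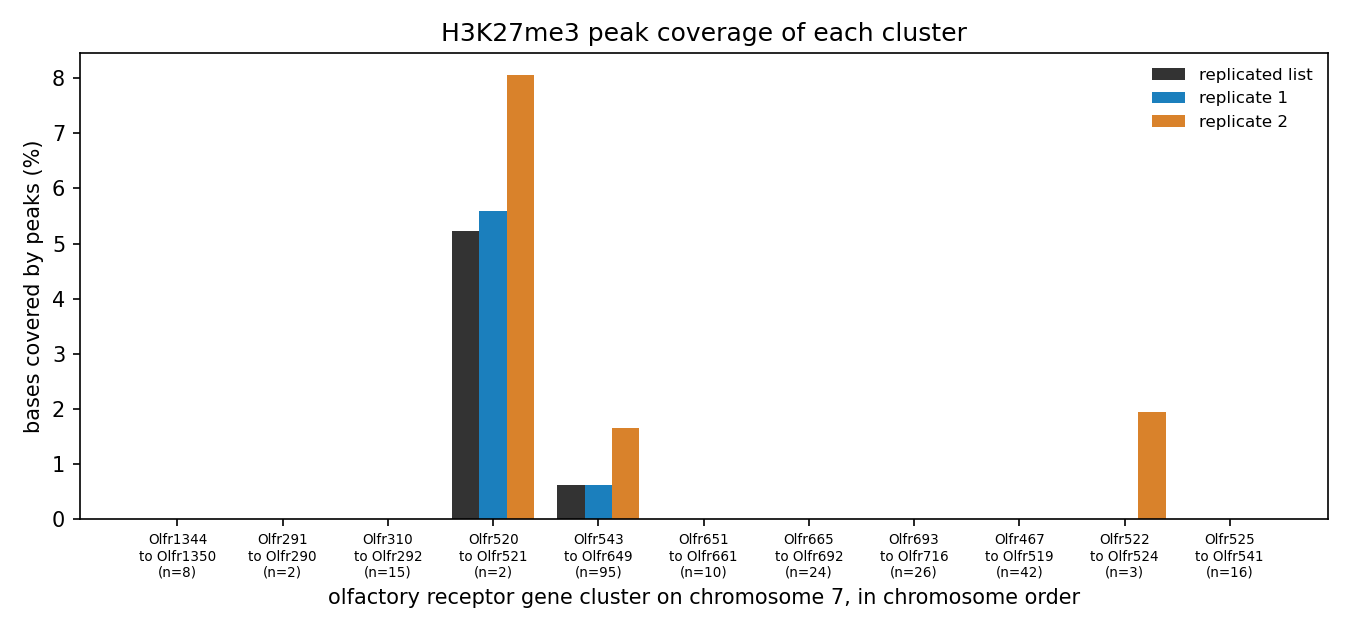
Share of bases covered by H3K27me3 peaks (y axis, %) in each of the 11 clusters of olfactory receptor genes in chromosome order (x axis, first and last gene and number of members), for the replicated list, replicate 1 and replicate 2. Bars stand on the cluster of Olfr520 and Olfr521 (5.23%, 5.59% and 8.06%), on the cluster from Olfr543 to Olfr649 (0.610%, 0.617% and 1.64%) and, in replicate 2 alone, on the cluster of Olfr522 to Olfr524 (1.94%).

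Within the globin-flanking cluster the peaks were grouped as well. The stretches that follow were drawn after the values were seen. The first, chr7:102517221-102667882, holds the starts of 10 members and 20 of the 37 replicated peaks, and 4.21% of its bases were covered, with 4.30% in replicate 1 and 8.77% in replicate 2. Next came 1001402 bp with the starts of 55 members and no replicated peak. In replicate 1 it held 3 peaks over 447 bases (0.0446%) and in replicate 2 it held 16 peaks over 2908 bases (0.290%), against 0.418% and 0.625% of the known sequence of the chromosome. A stretch of 118541 bp then leads up to the globin genes, with 8 member starts, 11 replicated peaks and 2.29% of bases covered (1.54% in replicate 1 and 3.28% in replicate 2). Beyond the globin genes, 303792 bp with 16 member starts held 6 replicated peaks and 0.467% coverage (0.609% and 2.32%).

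The long stretch without a replicated peak contains Olfr78, which is known outside the nose from oxygen sensing in the carotid body. Olfr78 had 0 covered bases in the replicated list and in replicate 1, and a single peak of 140 bases in its body in replicate 2 (it was chosen after its values were seen). Gaps of this size between peaks are not rare on the chromosome: 32 of 1384 gaps between neighbouring replicated peaks were as long or longer, while the median gap was 1956 bp. Those 32 gaps held 63.0% of all bases between replicated peaks. Once-only 31-base words made up 71.3% of the long stretch and 79.4% of the first stretch with peaks. The part of this difference in the peak counts was not tested.

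**Figure D3:**
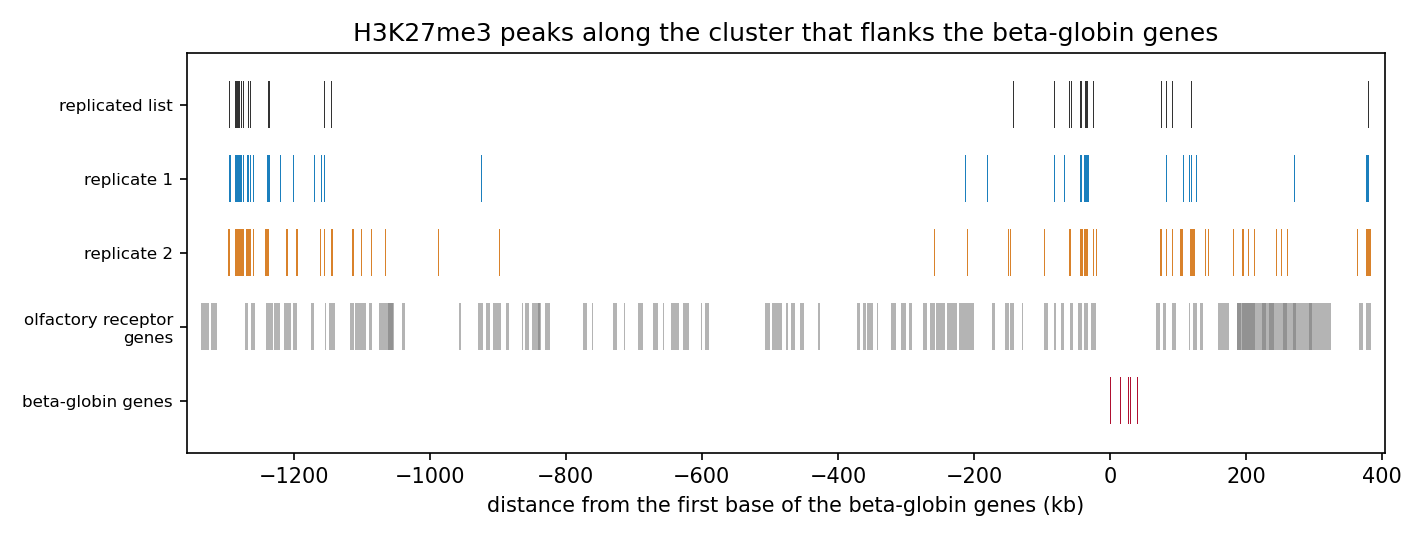
Peaks of the replicated list, replicate 1 and replicate 2 (upper 3 rows), bodies of the olfactory receptor genes (grey) and beta-globin genes (red) along the cluster from Olfr543 to Olfr649, by distance in kb from the first base of the beta-globin genes (narrow features are drawn at 1.2 kb to be visible). Peaks gather at the far left, on both sides of the globin genes and at the right end, and the 1001402 bp between the first and second groups hold no replicated peak.

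The largest group of replicated peaks lay around Olfr547. After joining peaks separated by up to 3 kb, the longest domain of the replicated list in any cluster was chr7:102527046-102538261, 11216 bp with 10 replicated peaks, of which 31.3% of bases were covered. The peaks of replicate 1 covered 23.5% of the same interval and those of replicate 2 covered 42.3%. In replicate 2 alone a domain between Olfr520 and Olfr521 was longer, 13699 bp with 13 peaks, against 11960 bp around Olfr547. The start of Olfr547 is the only member start inside its domain. The next replicated domain in length, 3753 bp with 4 peaks, ran over the end of Olfr548-ps1. Within 5 kb of their starts Olfr548-ps1, Olfr549 and Olfr550, further along the chromosome, had 1192, 1145 and 751 bases in the replicated list. In replicate 1 they had 958, 1067 and 820 bases, and in replicate 2 they had 2668, 2267 and 1597. Replicate 2 was thus highest at each of these genes.

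Olfr547 (chr7:102534749-102535684, + strand) is a gene of 936 bp in a single exon. Within 5 kb of its start 2079 bases were covered in the replicated list and 1336 and 3594 in replicates 1 and 2, the most of any member in each of these lists. Within 1 kb of the start the values were 310, 278 and 255 bases. The replicated peak nearest to the start ended 17 bp before it, with 174 of its bases in the list of replicate 2 and 0 in that of replicate 1, whose nearest peak was 374 bp from the start. The peak that reached the gene body covered 61 bases at its end, 58 of them coding.

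The other 4 members with a replicated peak at the start lie close to the globin genes, and their values rest on 1 replicate or on few bases. Olfr628 (chr7:103730374-103733324, + strand) had 379 covered bases in its start window in the replicated list and 517 and 0 in replicates 1 and 2. It was the only member with a replicated peak over the start itself, and its nearest peak in replicate 2 was 14973 bp away. Olfr68 (chr7:103774358-103779698, - strand) had 59, 169 and 18 bases in its start window. The peak of the replicated list began 942 bp downstream of the start and that of replicate 2 983 bp downstream, while that of replicate 1 lay 438 bp upstream. Its strength is in the body, of which 16.5% lay in replicated peaks, 8.43% in peaks of replicate 1 and 20.6% in those of replicate 2, the largest body share of any member in the replicated list.

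Olfr64 (chr7:103889485-103894485, - strand) had 176 covered bases in its start window in the replicated list and 140 and 427 in replicates 1 and 2. Its replicated peak, 228 bp upstream of the start, shared 0 bases with the peak of replicate 1 and 159 with those of replicate 2, so the 2 replicates marked this start window through different bases, as at Olfr68. Olfr65 (chr7:103903487-103908650, + strand) had 185, 0 and 539 bases. The peak of replicate 2 at Olfr65 had a −log10 q of 3.88, the highest of the 144 peaks of replicate 2 in the clusters, and replicate 1 had no peak within 8837 bp. Of the 5 members, 3 had a start peak in both replicates, 1 in replicate 1 alone and 1 in replicate 2 alone.

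The promoters of the 3 members whose replicated peaks reach into the 250 bases before the start are shown with 30 bases after it, read from GRCm38 on the gene's strand, 5′ to 3′. Capitals mark bases inside a replicated peak. Olfr547 is at chr7:102534499-102534778 (+), Olfr628 at chr7:103730124-103730403 (+) and Olfr64 at chr7:103894456-103894735 (-).
Olfr547: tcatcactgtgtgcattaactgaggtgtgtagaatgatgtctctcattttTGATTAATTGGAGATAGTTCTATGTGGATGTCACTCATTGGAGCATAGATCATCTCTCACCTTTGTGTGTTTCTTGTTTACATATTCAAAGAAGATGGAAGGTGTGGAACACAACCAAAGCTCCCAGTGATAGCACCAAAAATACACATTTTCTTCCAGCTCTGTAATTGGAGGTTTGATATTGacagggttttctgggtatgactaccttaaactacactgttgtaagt
Olfr628: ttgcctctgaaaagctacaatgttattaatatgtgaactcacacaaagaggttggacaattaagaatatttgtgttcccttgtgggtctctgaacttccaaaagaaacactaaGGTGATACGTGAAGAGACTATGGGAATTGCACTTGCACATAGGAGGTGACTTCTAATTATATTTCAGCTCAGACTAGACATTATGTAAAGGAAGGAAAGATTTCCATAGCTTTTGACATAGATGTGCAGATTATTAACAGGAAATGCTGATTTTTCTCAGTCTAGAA
Olfr64: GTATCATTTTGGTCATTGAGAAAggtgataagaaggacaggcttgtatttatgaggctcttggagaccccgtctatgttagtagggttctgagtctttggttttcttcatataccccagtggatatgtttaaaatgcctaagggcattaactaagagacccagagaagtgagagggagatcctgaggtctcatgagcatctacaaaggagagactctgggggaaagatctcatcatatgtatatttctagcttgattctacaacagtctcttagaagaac
The peak bases number 184 at Olfr547, 167 at Olfr628 and 23 at Olfr64. In Olfr547 they stop before the annotated start, in Olfr628 they run across it, and in Olfr64 they touch the far end of the window only. GC content of these windows was 38.2%, 36.1% and 41.4%.

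The threshold of 1 kb left out members of the same neighbourhoods. A further 11 members had their nearest replicated peak over 1 kb and up to 3 kb from the start: Olfr548-ps1, Olfr549, Olfr550, Olfr555, Olfr556, Olfr624, Olfr630, Olfr69, Olfr66, Olfr631 and Olfr632. Just inside the threshold was Olfr68 with a peak at 942 bp, and just outside were Olfr555 at 1122 bp and Olfr549 at 1297 bp. In all, 18 of the 243 members had a replicated peak within 5 kb, from 150 bases at Olfr66 to 2079 at Olfr547, with a median of 374.5 bases. In replicate 1, 20 of the 243 members had a peak of that list within 5 kb, and in replicate 2, 37 had one. Of these, 20 and 34 belong to the globin-flanking cluster. The share of all chromosome 7 genes with a peak within 5 kb was not computed, so these counts have no background beside them.

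**Figure D4:**
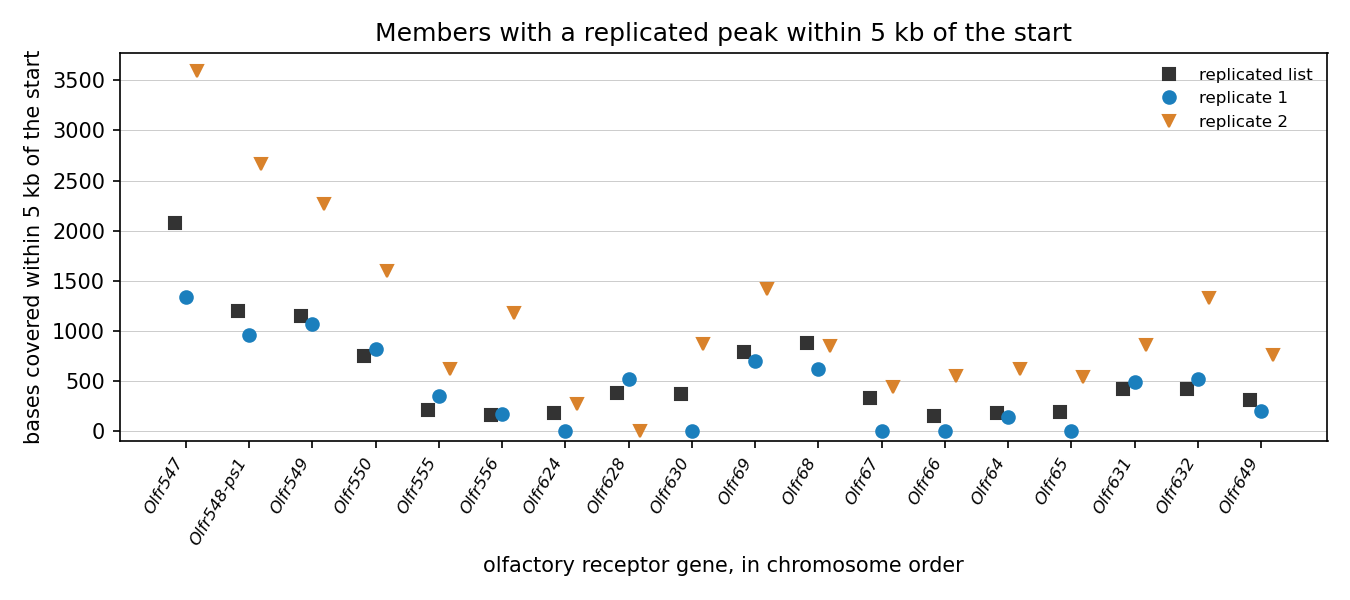
Bases covered by peaks within 5 kb of the start (y axis) of the 18 members with a replicated peak in that window, in chromosome order (x axis), in the replicated list, replicate 1 and replicate 2. Olfr547 stands highest in each list (2079, 1336 and 3594 bases), Olfr628 has 0 in replicate 2, and Olfr624, Olfr630, Olfr67, Olfr66 and Olfr65 have 0 in replicate 1.

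After Olfr68, the largest body shares in the replicated list were those of Olfr548-ps1 (14.9%) and Olfr69 (10.1%). Olfr548-ps1 had 744 covered bases of 4995 in the replicated list and 498 and 1864 in replicates 1 and 2. Olfr69 had 582 of 5790, with 404 and 842 in the replicates. Replicated peaks touched coding bases of 3 members alone, with 327 bases in Olfr67, 138 in Olfr630 and 58 in Olfr547. Coding sequence is a small part of most bodies. Of the coding sequence of the members 0.227% was covered, against 0.293% of their whole bodies.

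The 5 beta-globin genes (Hbb-bt, Hbb-bs, Hbb-bh2, Hbb-bh1 and Hbb-y, chr7:103812524-103853216) had 0 covered bases in every list, also within 5 kb of their starts. Hbb-bt and Hbb-bs are the adult genes, and Hbb-bh1 and Hbb-y are embryonic. The nearest replicated peak lay 24699 bp before this block and 34380 bp after it. In replicate 1 the distances were 32220 and 41295 bp, and in replicate 2 they were 20513 and 32927 bp. Of the 1384 gaps between replicated peaks on the chromosome, 155 were at least as long as the 99770 bp between these peaks. Those 155 gaps held 91.9% of all bases between replicated peaks, so most positions on the chromosome lie in a gap of this length or longer. Within 100 kb of the globin genes there were 14 replicated peaks, 15 of replicate 1 and 36 of replicate 2.

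The olfactory receptor genes next to the globin genes carried peaks on both sides. Before the block, Olfr69, Olfr68 and Olfr67 had 786, 879 and 327 bases covered within 5 kb of the start in the replicated list. After it, Olfr66, Olfr64 and Olfr65 had 150, 176 and 185. In replicate 1 the values were 699, 619 and 0 on the first side and 0, 140 and 0 on the second. In replicate 2 they were 1417, 849 and 441, then 547, 617 and 539. All 6 genes thus had a peak nearby in the replicated list and in replicate 2, and 3 of the 6 in replicate 1. In the 100 kb before the globin genes 2.54% of bases were covered (1.82% in replicate 1 and 3.75% in replicate 2), and in the 100 kb after them 0.929% (1.08% and 3.92%). From 300 to 800 kb before them, no peak of any list was found.

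The peaks that bound the globin genes are shown because they are the nearest calls of the replicated list on either side. Both are on the + strand of GRCm38, 5′ to 3′, with CpG dinucleotides, the sites of DNA methylation, in capitals. The peak before the globin genes, in the coding exon of Olfr67, which is read from the other strand, is given by the 300 bases nearest to them, chr7:103787526-103787825. The peak after them, 1344 bp upstream of the start of Olfr66, is given whole, chr7:103887596-103887745.
Olfr67 peak: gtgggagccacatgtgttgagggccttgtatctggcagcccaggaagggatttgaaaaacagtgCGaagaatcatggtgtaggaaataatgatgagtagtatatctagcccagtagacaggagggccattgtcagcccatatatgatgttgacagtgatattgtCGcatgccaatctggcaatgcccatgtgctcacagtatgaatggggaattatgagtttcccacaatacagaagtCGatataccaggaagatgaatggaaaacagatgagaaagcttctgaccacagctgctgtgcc
Olfr66 peak: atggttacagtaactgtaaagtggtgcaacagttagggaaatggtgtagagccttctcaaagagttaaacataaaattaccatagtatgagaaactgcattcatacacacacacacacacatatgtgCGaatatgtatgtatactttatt
The stretch in Olfr67 has a GC content of 46.0% and that near Olfr66 34.7%. Neither peak had a base in the list of replicate 1. Replicate 2 covered 301 bases of the whole Olfr67 peak and 140 bases of the Olfr66 peak.

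The replicates shared few of these calls. Of the 8 member starts with a peak in replicate 1, 3 (37.5%) also had one in replicate 2, which is 17.6% of the 17 in replicate 2. These were Olfr547, Olfr68 and Olfr64. Over the other genes of chromosome 7 the shared starts were 54.2% of those of replicate 1 and 41.0% of those of replicate 2. By covered bases, 4331 were shared in the clusters, 33.9% of replicate 1 and 13.4% of replicate 2, against 28.4% and 19.3% on the rest of the chromosome. Replicate 1 alone had a start peak at 5 members (Olfr549, Olfr551, Olfr628, Olfr629 and Olfr631) and replicate 2 alone at 14. No start peak was found in either replicate for 221 of the 243 members. Lacking one is usual on the chromosome: of its other 1778 genes, 59 had a start peak in replicate 1, 78 in replicate 2 and 32 in both. A single control served for both replicates, so they are not fully independent.

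By the authors' own scores few of the replicated peaks at these genes were strong. Of the 44 replicated peaks in the clusters, 28 had bases in both replicates' own lists, 3 in replicate 1 alone and 13 in replicate 2 alone. The same split was not computed for the other replicated peaks of the chromosome, so it cannot be called particular to these genes. A −log10 q of at least 2 was reached by 1 of the 44 (2.27%) and by 103 of the other 1341 replicated peaks of the chromosome (7.68%). Median width was 234.5 bp in the clusters and 270.0 bp elsewhere. The authors' signal value, a score whose definition is not given, had a median of 3.51 in the clusters and 3.54 elsewhere, and the medians of −log10 q were the same, 0.533. In replicate 2 the median signal value was 3.73 in the clusters and 3.72 elsewhere, and in replicate 1 it was 3.61 and 3.83. In replicate 1, 26 of 67 peaks in the clusters (38.8%) had the smallest width found on the chromosome in that list, 140 bp, against 22.5% of all its peaks there. In replicate 2 the figures were 23 of 144 (16.0%) and 23.6%.

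The single replicated peak in the clusters over that q, chr7:102529696-102530057, is 4692 bp upstream of Olfr547 with a −log10 q of 2.04. It had 220 bases in the list of replicate 1 and 309 in that of replicate 2. Its central 300 bases, chr7:102529727-102530026 on the + strand of GRCm38, are shown because it is the strongest replicated peak in any cluster. CpG would be in capitals, and there is none.
Strongest peak: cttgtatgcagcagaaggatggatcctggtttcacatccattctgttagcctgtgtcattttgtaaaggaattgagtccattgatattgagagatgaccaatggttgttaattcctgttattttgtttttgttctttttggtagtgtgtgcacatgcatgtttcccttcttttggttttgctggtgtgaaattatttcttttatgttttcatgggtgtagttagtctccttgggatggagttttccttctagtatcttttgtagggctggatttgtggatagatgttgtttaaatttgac
In the reference, 87.3% of the bases of this peak are repeat-masked (lower case in the RefSeq sequence) and 89.0% of its 31-base words occur once in the genome. It was among 6 of the 44 peaks with 50% or more of their bases masked.

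Peaks lay mostly in sequence that occurs once. Of the bases covered in the clusters by replicated peaks, 97.9% began a 31-base word found once in the genome, against 73.4% of all bases in the clusters, and 22.8% were repeat-masked, against 44.6%. On the rest of the chromosome the covered bases gave 98.6% and 21.4%, against 78.3% and 35.1% of all known bases. Calls were thus fewer in repeated sequence, both inside and outside the clusters, and the part of this in the uncovered share of a cluster was not tested. How reads that fit several places were treated is not stated in the labels or the deposited texts.

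The start windows of the members were poor in CpG. Median GC within 1 kb of the start was 38.0%, against 51.6% for the other genes of chromosome 7, and the observed over expected CpG was 0.102, against 0.381. The 5 members with a replicated peak at the start had medians of 37.2% and 0.107, near those of all members. The 32 other chromosome 7 genes with a replicated peak at the start had 52.8% and 0.343. Known olfactory promoter motifs were looked for on both strands from 250 bases before to 50 after the start. The homeodomain motif TAATTA occurred in 42 of 243 members (17.3%) and 62 of 1778 other genes (3.49%). TAATGA, also a homeodomain motif, occurred in 77 (31.7%) and 168 (9.45%). The Ebf core CCCNNGGG occurred in 45 (18.5%) and 280 (15.7%). TAATTA holds A and T alone, and the start windows of the members are lower in GC. The part of base composition in these shares was not tested. The windows rest on GENCODE starts, and the RefSeq start lay over 1 kb away in 157 of 207 members. Among the 5 members with a start peak, Olfr628 held TAATTA, and the other 2 motifs were found in none of their windows.

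Compared with related receptor genes, the members lay between the extremes. The 154 vomeronasal receptor genes of chromosome 7, which detect pheromones and also stand in clusters, had 0 start peaks in the replicated list and in both replicates. Among all protein-coding genes of this chromosome the shares were low as well: 1.83% (replicated), 3.32% (replicate 1) and 4.7% (replicate 2). With shares this low, a 0 among 154 clustered genes says little. The 294 olfactory receptor genes of chromosome 2 had 0 replicated start peaks, against 2.93% of all genes there, and the 132 of chromosome 9 had 1, against 4.46%. The 82 of chromosome 11 had 22 (26.8%), against 6.54% of all genes of that chromosome. On all other chromosomes together 44 of 891 olfactory receptor genes had one (4.94%), against 3.0% of all 21911 protein-coding genes. These are counts side by side, and no test was attached because neighbouring genes share their peaks.

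Among genes that act in olfactory neurons, the share of replicated start peaks rested on 1 gene and was near that of all genes. Peaks in the body were more frequent than over all genes. Of 24 genes of the olfactory neuron, from the G protein subunit gene Gnal to the regulators Lhx2 and Ebf1, 1 had a replicated peak at the start (4.17%), against 3.0% of all protein-coding genes. It was Cngb1, which encodes a subunit of the cyclic nucleotide-gated channel, with 260 bases in the replicated list and 164 and 551 in replicates 1 and 2. Lhx2 had a start peak of 474 bases in replicate 1 and none in the replicated list or replicate 2. Replicated peaks touched the bodies of 7 of the 24 (29.2%), against 11.5% of all protein-coding genes. Some of the 7 are very long, such as Gnal (chr18:67088216-67226792) and Ebf1 (chr11:44617317-45008091). The median over all protein-coding genes was 17433 bp. The part of gene length in this share was not tested. Of 4 markers of mature olfactory neurons (Omp, Adcy3, Cnga2 and Gnal), 0 had a start peak in any list, and Adcy3 and Gnal had one in the body. Of 12 erythroid marker genes, 1 (Slc4a1, the band 3 anion exchanger) had a start peak, in every list. Peaks alone do not show which of these genes are transcribed.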

How the data were processed

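H3K27me3 peak lists of 2 MEL replicates were used as deposited. Per the deposited text descriptions, the authors called each replicate's peaks on its own mm10 alignments against 1 shared control, called a pooled list on both, and derived the replicated list from these 3. The aligner, the caller and the rule for keeping a peak are not given in the sources read here. For each peak the authors deposited a signal value (a score of unstated definition) together with −log10 p-values and q-values. An mm9 list was not used. The members and lists were chosen with earlier results of these data known.

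Coverage was computed from the union of peaks with Python 3.11.15, NumPy 2.4.6 and pandas 2.3.3. Starts were the outermost 5′ ends of GENCODE M21 genes, with 1 kb on each side and at least 1 bp of peak. Circular shifts in steps of 10 kb are given as a description with no p-value. Once-only 31-base words were counted over chromosomes 1 to 19, X and Y of RefSeq's GRCm38 with numba 0.67.0. The code was tested on simulated data. Named members had a replicated start peak (up to 15), were among the 5 with the largest body share, the 3 nearest to the globin genes on each side, or the 2 with most bases within 5 kb in each cluster of 10 or more. Further members are named where a count or comparison lists them. Alternatives were other windows, starts, joining distances, shift spans and peak subsets, the pooled list and each replicate alone.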

Additional observations from a re-analysis of the deposited data

How the results depend on the processing

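The count of members with a peak at the start depended on the list and the window. It was 5 as reported, 0 with a −log10 q of at least 2, 2 with the upper 50% of peaks by signal value, 2 with at least 200 bp of the window covered, 10 in the pooled list, 11 with 2.5 kb on each side, and 8 to 17 with 1 replicate left out. With starts of any annotated transcript it was 6, and with RefSeq starts, which were found for 207 members and lay over 1 kb away in 157 of them, it was 4 (these were added after seeing the data). The ratio of that count to the shift mean, 1.30 as reported, was 0 at the stricter q, 0.872 with the upper 50% and 0.709 with 200 bp. It was 1.54 in the pooled list, 1.59 with 2.5 kb on each side, and 1.15 to 1.64 with 1 replicate left out. With starts of any annotated transcript the ratio was 1.03, and with RefSeq starts 1.22. Of the replicated peaks of the chromosome 7.51% reach the stricter q, so a ratio of 0 there rests on few peaks and does not show a lack. The ratio for covered body bases, 0.931, was 0 at the stricter q, 1.18 in the pooled list, 0.660 in replicate 1 and 1.5 in replicate 2, so its side of 1 depends on the list. With 1 replicate left out, body coverage ran from 0.276% to 0.939%, coverage of all clusters from 0.255% to 0.645% (0.250% as reported) and that of the globin-flanking cluster from 0.617% to 1.64%. Joining peaks within 3 kb gave 0.661% and 1.55% for the last 2. The causes were not tested. Leaving out Olfr643, whose annotated body spans neighbouring genes, gave a body coverage of 0.298%. No paired analysis was possible because the replicates form 1 group. Depth is unknown, so weak or narrow enrichment below the calling threshold is not detectable here.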

Other observations

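The globin-flanking cluster holds 14 protein-coding genes that are not olfactory receptors. They include Trim21 and Trim68, which encode ubiquitin ligases, and the 5 beta-globin genes. Of the 14, 0 had a peak at the start in any list, against 1.83% of chromosome 7 genes in the replicated list and 4.7% in replicate 2, so little can be read from a count of 0. The gene 4930516K23Rik had 185 bases covered within 5 kb of its start in the replicated list, and 140 and 331 in replicates 1 and 2. Trim21 lies in the first stretch with peaks and had 154 bases covered within 5 kb of its start in replicate 2 and 0 in the replicated list. Of the 49 olfactory receptor pseudogenes, 0 had a start peak in the replicated list, 1 in replicate 1 (Olfr650-ps1, 2.04%) and 3 in replicate 2 (Olfr546-ps1, Olfr634-ps1 and Olfr650-ps1, 6.12%), against 1.83%, 3.32% and 4.7% of chromosome 7 genes. Signal values of peaks in the clusters took 12 distinct values over 67 peaks in replicate 1 and 31 over 144 peaks in replicate 2. These genes and counts were chosen after their values were seen.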
